A study of Mus musculus with 2 samples.

Results

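The genes described here are 10 parts of the Hippo pathway in mouse embryonic stem cells: the coactivators Yap1 and Wwtr1 (Taz), the DNA-binding factors Tead1, Tead2 and Tead4, the kinases Lats1 and Lats2, and the target genes Cyr61, Ctgf and Amotl2. They were taken by symbol from a table of 14500 genes, and all 10 have a row. The cells were 46C, an embryonic stem cell line with a green fluorescent protein reporter in the Sox1 locus, at passages 21 to 24, grown on gelatin in serum medium with LIF. The library titled PB-Gbx2 stands for cells transfected with a vector for the homeobox factor Gbx2, and the library titled PB for cells transfected with the empty vector. Each group has 1 library of total RNA, so no value has a replicate error and no test between the groups was possible. Whether the transfected cells were a pool or a clone was not stated in the labels.

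The labels are at odds with themselves, since the sample titled PB-Gbx2 has a source name that calls it the control, and the sample titled PB has the source name of overexpressing cells. Groups follow the titles, and every direction below would turn around if the source names were right. Gbx2 itself had a level of 1178 in PB-Gbx2 and 345 in PB, which goes with the titles. The authors deposited levels as normalized whole numbers whose sorted values are identical in the libraries, and read depth is unknown. The 8 embryonic stem cell markers examined, Pou5f1, Sox2 and Nanog among them, stood between 3430 and 26878 in PB-Gbx2 and between 3843 and 19886 in PB. They were not equal between the libraries: 6 of the 8 were higher in PB-Gbx2. Nanog (19872 in PB-Gbx2, 8918 in PB) and Zfp42 (16671 in PB-Gbx2, 8320 in PB) were at least 2-fold higher, against 5.14% of all genes. Among genes of similar level, the share was 1.52%.

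In the Hippo pathway, the kinases Stk3 and Stk4 (Mst2 and Mst1) with the scaffold Sav1 activate Lats1 and Lats2, which work with Mob1 proteins. Lats kinases phosphorylate Yap1 and Wwtr1, which are then held in the cytoplasm or degraded. Unphosphorylated Yap1 and Wwtr1 enter the nucleus and bind Tead factors at the regulatory regions of target genes. In the early mouse embryo this pathway separates the outer trophectoderm, where Yap1 and Tead4 are active, from the inner cell mass, the origin of embryonic stem cells. Much of this control acts on protein phosphorylation and location, which RNA levels do not show.

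Cyr61 and Ctgf were more than 2-fold higher in PB-Gbx2, while the coactivators, Tead factors and Lats kinases differed by less than 1.3-fold between the libraries. Of the 10 genes, 2 were at least 2-fold higher in PB-Gbx2 and 0 were at least 2-fold lower, on log2(level + 1). Over all 14500 genes, the share that reached 2-fold was 5.14% in the higher direction and 5.26% in the lower. The 10 genes were chosen with these values known, so their count is a description. The median of their log2 ratios, PB-Gbx2 over PB, was 0.19, against 0.00 over all genes, and 8 of the 10 lay above 0, against 49.2% of all genes.

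**Figure D1:**
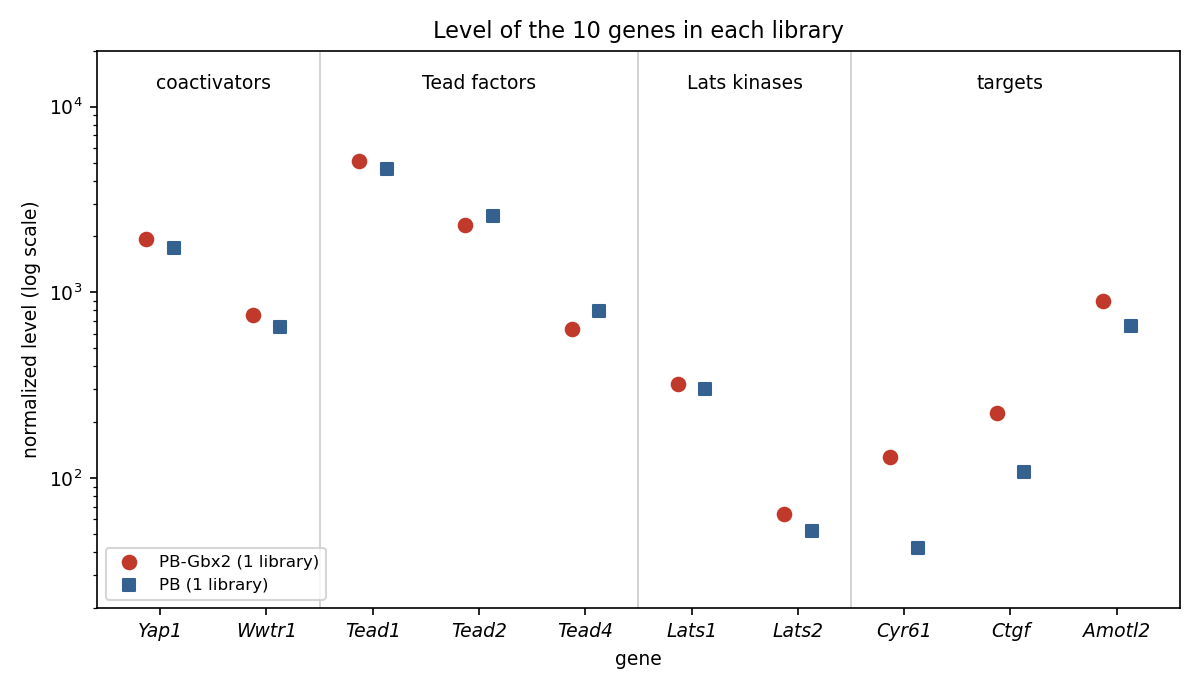
Normalized level (log scale) of each of the 10 genes, with a red circle for the PB-Gbx2 library and a blue square for the PB library, 1 library each. The symbols lie close together for the coactivators, Tead factors and Lats kinases, and furthest apart for Cyr61 (130 in PB-Gbx2, 42 in PB).

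Lats1, a kinase that phosphorylates Yap1, had a level of 321 in PB-Gbx2 and 300 in PB, a log2 ratio of 0.10. Lats2, its paralogue and also a Yap target in a feedback loop, had a level of 64 in PB-Gbx2 and 52 in PB, a log2 ratio of 0.29. For Lats2, genes of similar level scattered widely, with an SD of the log2 ratio of 0.87 over the 725 genes nearest in level (1 of 20 groups of equal size). For Lats1, that SD was 0.50. Each Lats ratio lay inside the spread of its own genes of similar level, at percentile 57.7 for Lats1 and 66.3 for Lats2.

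None of the 7 genes of the core kinase cascade passed 2-fold, and their median log2 ratio was 0.10. Stk3 had the largest difference, with a level of 322 in PB-Gbx2 and 507 in PB, 1.57-fold lower and at percentile 5.17 of the genes of similar level. Its paralogue Stk4 stood at 2130 in PB-Gbx2 and 2146 in PB. The pair therefore differed in their ratios, with Stk4 nearly equal between the libraries. The scaffold Sav1 stood at 620 in PB-Gbx2 and 439 in PB, 1.41-fold higher. The Lats cofactors Mob1a (1447 in PB-Gbx2, 1193 in PB) and Mob1b (462 in PB-Gbx2, 497 in PB) had log2 ratios of 0.28 and -0.11.

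Upstream regulators were spread evenly around 0. Of 30 genes with a row, 16 lay above 0 and 14 below, none passed 2-fold, and the median log2 ratio was 0.02. The largest ratios were those of Tnik, a kinase of the Map4k family (92 in PB-Gbx2, 174 in PB), and Rassf5, which binds Mst kinases (98 in PB-Gbx2, 53 in PB). Next came the polarity protein Crb3 (271 in PB-Gbx2, 486 in PB) and Rassf1, another Mst-binding protein (96 in PB-Gbx2, 172 in PB). The paralogues Wwc1 (Kibra) and Wwc2, scaffolds that promote Lats activation, had ratios of opposite sign. Wwc1 stood at 817 in PB-Gbx2 and 1390 in PB, a log2 ratio of -0.77 at percentile 1.72 of the genes of similar level. Wwc2 stood at 1289 in PB-Gbx2 and 886 in PB, a log2 ratio of 0.54 at percentile 94.7. Nf2 (merlin), a membrane-linked activator of Lats kinases, differed little, with 2248 in PB-Gbx2 and 2510 in PB. Wwc1, Wwc2 and Nf2 were picked from this list after their values were seen.

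Yap1 had a level of 1948 in PB-Gbx2 and 1731 in PB, a log2 ratio of 0.17. Wwtr1 had a level of 756 in PB-Gbx2 and 650 in PB, a log2 ratio of 0.22. Both coactivators were thus slightly higher in PB-Gbx2, at percentiles 76.9 and 75.1 of the genes of similar level. Divided by the length of the longest coding transcript, the level per kilobase was 467 for Yap1 and 161 for Wwtr1 in PB-Gbx2, and 415 for Yap1 and 138 for Wwtr1 in PB. Yap1 made up 74.4% of their summed level per kilobase in PB-Gbx2 and 75.0% in PB, so the balance between the coactivators was nearly the same in the libraries.

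The Tead factors did not share a direction. Tead1 had a level of 5095 in PB-Gbx2 and 4604 in PB, a log2 ratio of 0.15. Tead2 had a level of 2307 in PB-Gbx2 and 2564 in PB, a log2 ratio of -0.15. Tead4, the member needed for trophectoderm in the embryo, had a level of 634 in PB-Gbx2 and 798 in PB, a log2 ratio of -0.33. Tead1 was thus the single member of these 3 that was higher in PB-Gbx2, and all 3 lay between percentiles 18.3 and 74.0 of the genes of similar level. Tead3, the remaining paralogue, had a level of 286 in PB-Gbx2 and 220 in PB, a log2 ratio of 0.38.

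Per kilobase of transcript, Tead2 ranked first among the 4 paralogues in each library, with 679 in PB-Gbx2 and 755 in PB. Tead1 followed with 511 in PB-Gbx2 and 462 in PB, then Tead4 with 206 in PB-Gbx2 and 259 in PB, and Tead3 with 103 in PB-Gbx2 and 79.3 in PB. The order of the paralogues was therefore the same in the libraries, while Tead2 and Tead4 made up smaller parts of the summed level per kilobase in PB-Gbx2. Tead2 made up 45.3% of the sum in PB-Gbx2 and 48.5% in PB, and Tead4 13.7% in PB-Gbx2 and 16.7% in PB. Tead1 made up 34.1% in PB-Gbx2 and 29.7% in PB. The sum over the 4 paralogues was 1499.8 per kilobase in PB-Gbx2 and 1556 in PB, a ratio of 0.964, whereas the sum of their undivided levels was 8322 in PB-Gbx2 and 8186 in PB, a ratio of 1.02. Whether the deposited levels were already scaled by length is not stated, and without the division Tead1 ranks above Tead2.

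**Figure D2:**
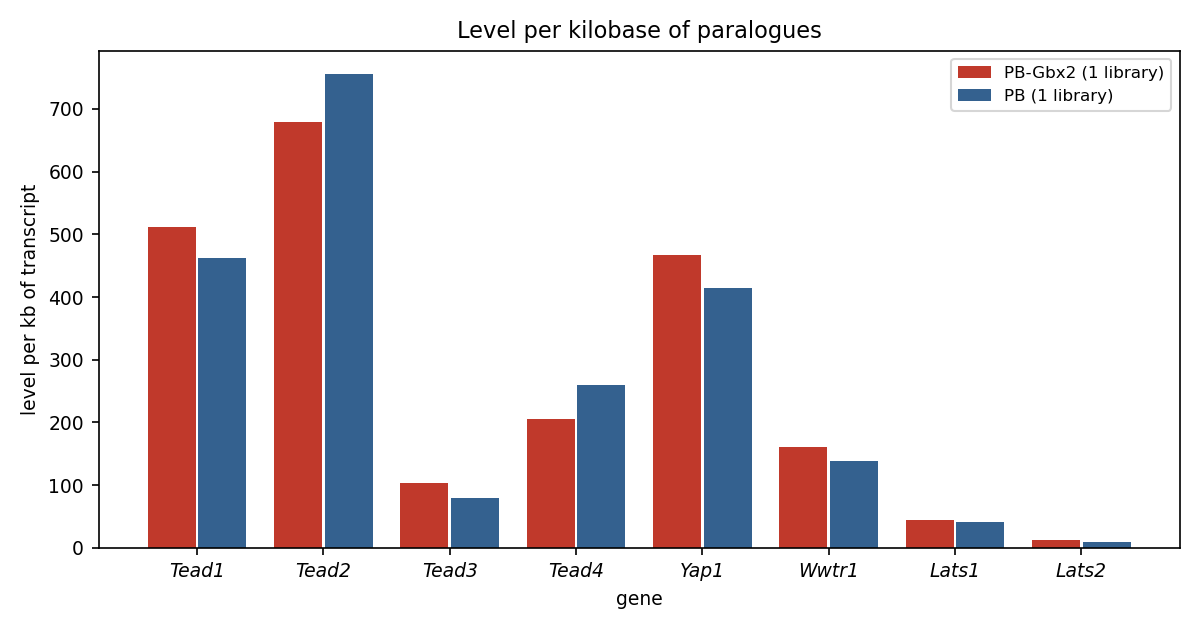
Level per kilobase of the longest coding transcript for the Tead factors, the coactivators and the Lats kinases, with red bars for the PB-Gbx2 library and blue bars for the PB library, 1 library each. Tead2 has the tallest bars among the Tead factors (679 in PB-Gbx2, 755 in PB), and Yap1 stands above Wwtr1 in each library.

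Of the target genes, Cyr61 (Ccn1), a secreted matrix-associated protein and a direct target of Yap1 and Tead factors, had a level of 130 in PB-Gbx2 and 42 in PB. It was 3.10-fold higher, a log2 ratio of 1.61. Ctgf (Ccn2), a related secreted protein, had a level of 225 in PB-Gbx2 and 108 in PB, 2.08-fold higher and a log2 ratio of 1.05. Amotl2, an angiomotin-like protein that binds Yap1 and is itself induced by it, had a level of 893 in PB-Gbx2 and 662 in PB, 1.35-fold higher and a log2 ratio of 0.43. All 3 targets were thus higher in PB-Gbx2, in the order Cyr61, Ctgf, Amotl2 by ratio. Per kilobase of transcript their order of level was the reverse, with 206 for Amotl2, 90.4 for Ctgf and 64.4 for Cyr61 in PB-Gbx2, and 153, 43.4 and 20.8 for the same genes in PB.

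Cyr61 and Ctgf have low levels, where ratios between libraries scatter more. Among the 725 genes of similar level to Cyr61, 10.9% were at least 2-fold higher, and Cyr61 lay at percentile 95.5. For Ctgf, 6.62% of the genes of similar level were at least 2-fold higher, and it lay at percentile 94.1. Amotl2 lay at percentile 92.8, where the SD of the log2 ratio was 0.35. All 3 ratios were therefore within the scatter of genes of similar level, towards its upper end. In the authors' deposited table, the p-value is 0.0756 for Cyr61, 0.116 for Ctgf and 0.282 for Amotl2, and all 10 genes have an adjusted p of 1. Those p-values rest on 1 library per group.

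**Figure D3:**
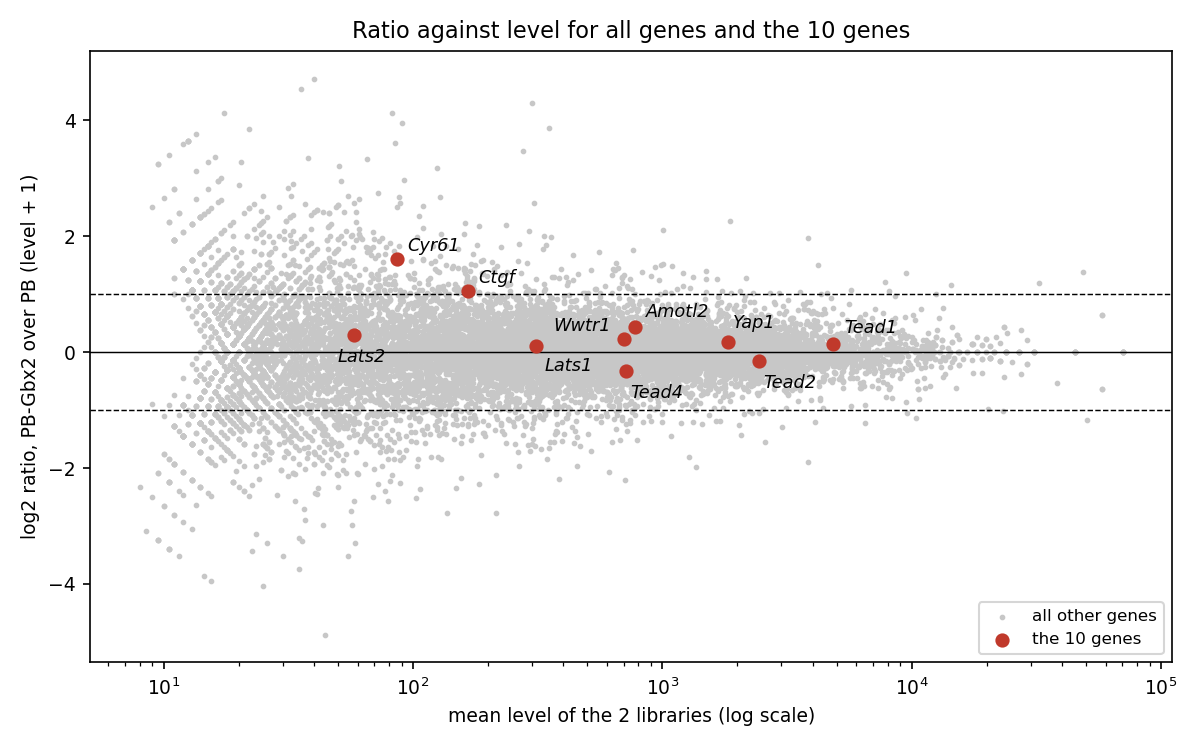
Log2 ratio of PB-Gbx2 over PB (level + 1) against the mean level of the libraries (log scale), with the 10 genes in red and all other genes in grey, and dashed lines at 2-fold. Cyr61 (1.61) and Ctgf (1.05) lie above the upper dashed line at levels where the grey points spread widely, and the other 8 genes lie between the lines.

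Set against each other, the median log2 ratio was 1.05 for the 3 targets and 0.10 for the 5 Lats kinases and Tead factors, a difference of 0.95. The lowest target, Amotl2, lay 0.14 above the highest of the other 5, Lats2. That gap is small beside the SD of 0.87 among genes of similar level to Lats2. It also depends on the genes compared. Tead3 (0.38), not among the 5, lay nearer to Amotl2 (0.43), and Sav1 of the core kinase cascade (0.50) lay above it. With 1 library per group and members chosen for these values, the difference between the medians was not tested.

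Promoter sequences are shown for 3 of the higher targets because Tead factors bind a core of letters GGAATG, read as CATTCC on the other strand. RefSeq promoters on build GRCm38.p6 matched 7 of the 10 genes, and Ctgf, Tead1 and Tead4 were not matched. The windows are the 250 bases before the start of the gene, read 5′ to 3′ on its own strand, and capitals mark the core. Cyr61 (chr3:145649986-145650235, minus strand) has it starting 103 bases before the start, and Amotl2 (chr9:102717554-102717803, plus strand) 65 bases before it. Ptpn14 (chr1:189728018-189728267, plus strand), a further target described below, has it 146 bases before the start.
Cyr61: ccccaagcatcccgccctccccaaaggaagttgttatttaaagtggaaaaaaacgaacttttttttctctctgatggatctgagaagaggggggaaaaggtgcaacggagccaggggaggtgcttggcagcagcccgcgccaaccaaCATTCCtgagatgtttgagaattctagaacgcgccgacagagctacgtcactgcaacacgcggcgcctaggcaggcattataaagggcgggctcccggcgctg
Amotl2: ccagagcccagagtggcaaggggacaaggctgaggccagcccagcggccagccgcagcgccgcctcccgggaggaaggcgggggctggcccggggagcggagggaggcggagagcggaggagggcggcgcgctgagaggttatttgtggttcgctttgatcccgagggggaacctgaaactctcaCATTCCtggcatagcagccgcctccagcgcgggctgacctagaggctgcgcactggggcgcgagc
Ptpn14: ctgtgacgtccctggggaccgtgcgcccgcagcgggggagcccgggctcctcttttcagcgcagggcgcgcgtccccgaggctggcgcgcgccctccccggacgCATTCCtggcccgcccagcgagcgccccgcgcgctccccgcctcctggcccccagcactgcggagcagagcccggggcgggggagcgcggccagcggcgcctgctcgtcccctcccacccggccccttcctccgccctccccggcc
All 3 windows hold the core as CATTCC. Yap1 (141 bases before the start) and Wwtr1 (136 and 170 bases before its annotated starts) hold it as GGAATG. The windows of Tead2, Lats1 and Lats2 hold neither. Among further targets named below that were also higher, Crim1, Axl and Ankrd1 have the core in their windows. Myof (log2 ratio 0.70), F3 (0.35) and Igfbp3 (0.20) do not. The core occurred in 12.6% of all 32851 promoter windows, either strand, so a match is common and describes letters only. The AP-1 motif TGANTCA (6.75% of all windows) and the CArG box of serum response factor (1.47%) were in no window of the 7 genes, on either strand. Motifs this rare would seldom be met in so few windows. Bases further upstream were not searched and Ctgf had no window, so nothing about these factors follows.

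A wider list of 22 genes often used as a readout of Yap1 and Wwtr1 in human cells had 18 members with a row, among them Cyr61, Ctgf, Amotl2 and Lats2. Of these, 4 were at least 2-fold higher in PB-Gbx2 and 1 at least 2-fold lower, against the 5.14% and 5.26% of all genes. The median log2 ratio was 0.52, and 15 lay above 0 and 3 below. Without the 4 genes shared with the 10, 2 of 14 were at least 2-fold higher and 1 lower, with a median of 0.48 and 11 above 0.

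Fjx1, related to a Drosophila Golgi kinase that acts on Fat cadherins, had a level of 179 in PB-Gbx2 and 40 in PB, 4.48-fold higher. Ptpn14, a phosphatase that binds Yap1 and holds it out of the nucleus, had a level of 1196 in PB-Gbx2 and 460 in PB, 2.60-fold higher. Ptpn14 lay at percentile 99.8 of the genes of similar level and Fjx1 at 99.0, further out than Cyr61 or Ctgf. The adjusted p given in the authors' deposited table is 0.133 for Ptpn14 and 0.656 for Fjx1. Nt5e (CD73), a surface enzyme that makes adenosine, went against the others, with a level of 138 in PB-Gbx2 and 631 in PB, 4.57-fold lower. The authors' deposited table gives it an adjusted p of 0.0142.

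Below 2-fold, several other members of the list were higher. The membrane protein Myof stood at 4984 in PB-Gbx2 and 3058 in PB, at percentile 97.4 of the genes of similar level. The receptor tyrosine kinase Axl stood at 384 in PB-Gbx2 and 236 in PB, and Arhgef17 at 1089 in PB-Gbx2 and 709 in PB. These 3 were between 1.54-fold and 1.63-fold higher. Crim1, a membrane protein that binds BMP ligands, stood at 94 in PB-Gbx2 and 48 in PB. Ankrd1, a nuclear cofactor best known in muscle, had the lowest level of the list, 28 in PB-Gbx2 and 18 in PB. Besides Nt5e, Gadd45a (515 in PB-Gbx2, 634 in PB) and Nuak2 (526 in PB-Gbx2, 557 in PB) were the members below 0. The genes of this paragraph were picked from the list after their values were seen.

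**Figure D4:**
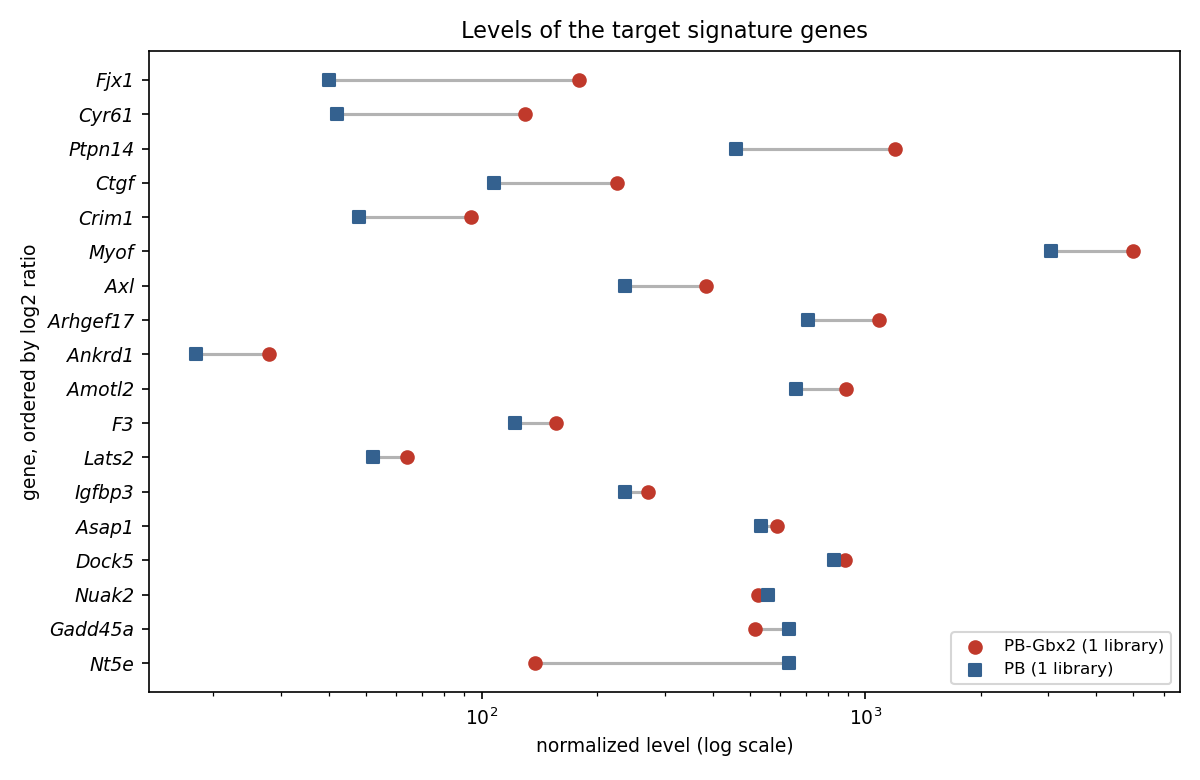
Normalized level (log scale) of the 18 listed target genes with a row, ordered by log2 ratio, with red circles for the PB-Gbx2 library and blue squares for the PB library, 1 library each. The red circle lies to the right for 15 genes, and Nt5e at the bottom (138 in PB-Gbx2, 631 in PB) has the longest line in the opposite direction.

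Another list, of 23 genes reported as targets of Yap1 or Tead factors in various tissues, had 17 with a row. It holds Tead1 and Tead4, and 2 more genes of the component lists (Ajuba and Wtip). Of the 17, 4 were at least 2-fold higher in PB-Gbx2 and 0 lower, against 5.14% and 5.26% of all genes, with a median log2 ratio of 0.33 and 13 above 0. Without the 4 shared genes, 4 of 13 were at least 2-fold higher and 10 lay above 0, with a median of 0.67. With a minimum level of 100 in at least 1 library, 13 of the 17 were left and 1 was at least 2-fold higher, against 269 of the 10941 genes left in all. The 4 were the peptide hormone precursor Edn1 (16 in PB-Gbx2, 2 in PB), the matrix protein Thbs1 (38 in PB-Gbx2, 16 in PB), the actin-binding Tagln (44 in PB-Gbx2, 20 in PB) and the cyclin Ccnd1 (1380 in PB-Gbx2, 670 in PB). Edn1, Thbs1 and Tagln had levels where ratios scatter widely, and lay between percentiles 87.6 and 96.8. The mean level of Edn1 over the libraries was 9, near the lowest mean of any row, 8, so its level in PB-Gbx2 alone kept it above that limit. The growth-linked genes Birc5 (2640 in PB-Gbx2, 2940 in PB) and Myc (654 in PB-Gbx2, 674 in PB) were not higher.

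Among 19 proteins that bind Yap1 or Tead factors, Ptpn14 alone passed 2-fold, and the median log2 ratio was 0.20. Vgll3, a coactivator that competes with Yap1 for Tead factors, had levels of 46 in PB-Gbx2 and 24 in PB. The angiomotins Amot (120 in PB-Gbx2, 104 in PB) and Amotl1 (431 in PB-Gbx2, 325 in PB), which hold Yap1 at junctions, were higher in PB-Gbx2 like Amotl2. Amotl1 was 1.33-fold higher, close to the 1.35 of Amotl2, and Amot 1.15-fold. The phosphoserine-binding adaptor Ywhag, of the family that retains phosphorylated Yap1 in the cytoplasm, stood at 6728 in PB-Gbx2 and 4882 in PB. Its paralogues did not share a direction. Ywhab (3910 in PB-Gbx2, 3666 in PB) and Ywhah (2384 in PB-Gbx2, 2044 in PB) were also higher. Ywhae (13630 in PB-Gbx2, 15372 in PB) and Ywhaz (5918 in PB-Gbx2, 6436 in PB) were lower. So were Ywhaq (5286 in PB-Gbx2, 5416 in PB) and Sfn (1385 in PB-Gbx2, 1415 in PB). Over the 62 genes of all the component lists together, 1 was at least 2-fold higher and 0 lower, against the 5.14% and 5.26% of all genes, and the median log2 ratio was 0.09. Genes at high levels, as many of these are, reached 2-fold less often. In the tenth of genes by level that holds Tead1, 1.66% did so in either direction, against 10.4% of all genes. The count was not set against genes of similar level.

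**Figure D5:**
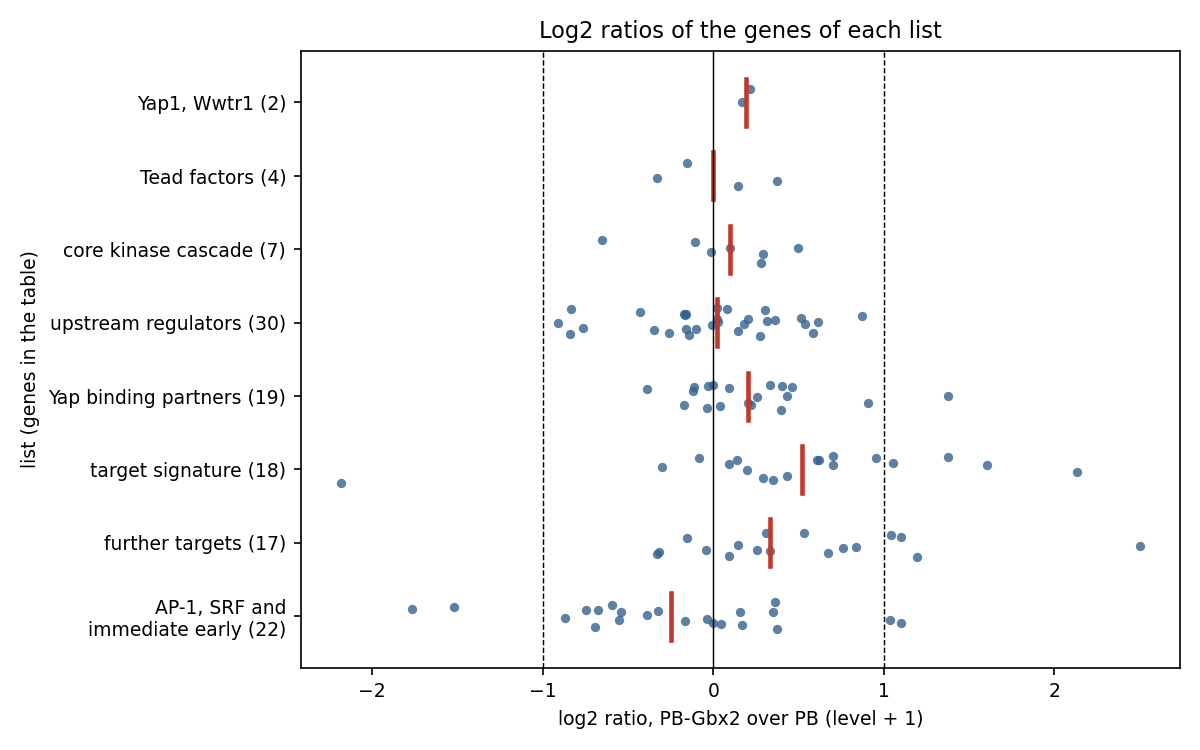
Log2 ratio of PB-Gbx2 over PB (level + 1) for each gene of the pathway and target lists, with a red bar at the median of each list, dashed lines at 2-fold and the number of genes in brackets. The medians of the component lists lie between 0.00 and 0.20, those of the target lists at 0.52 and 0.33, and that of the AP-1, SRF and immediate early list at -0.24.

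Cyr61 and Ctgf are also immediate early genes that serum response factor (SRF) and AP-1 can induce, so those genes were set beside them. Of 22 genes with a row, 2 were at least 2-fold higher in PB-Gbx2 and 2 lower (5.14% and 5.26% of all genes), 8 lay above 0 and 13 below, and the median log2 ratio was -0.24. Jun, an AP-1 subunit, stood at 124 in PB-Gbx2 and 60 in PB. Fos, its partner, stood at 74 in PB-Gbx2 and 108 in PB, and the zinc finger factor Egr1 at 262 in PB-Gbx2 and 396 in PB. Jun thus had the direction of Cyr61 and Ctgf, and Fos and Egr1 the opposite. Besides Jun, the gene at least 2-fold higher was Tagln (44 in PB-Gbx2, 20 in PB), which is also counted among the further targets above. The actin-binding Cnn1 (24 in PB-Gbx2, 84 in PB) and the stress-response gene Ier3 (410 in PB-Gbx2, 1178 in PB) were at least 2-fold lower.

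Fibroblasts and other differentiated cells also express Cyr61 and Ctgf. In bulk RNA, fewer cells of a type and less RNA per cell cannot be told apart. Of 12 fibroblast markers, 6 had a row, with a summed level of 1219 in PB-Gbx2 and 1912 in PB, and 1 of the 6 (Col1a2, 18 in PB-Gbx2, 9 in PB) was higher. Col1a1 stood at 36 in PB-Gbx2 and 132 in PB, and Col3a1, Postn, Lum and Dcn were not analysed here. Thy1 (492 in PB-Gbx2, 866 in PB) and Pdgfrb (486 in PB-Gbx2, 626 in PB) made up most of the fibroblast sum in each library. Of 10 primitive endoderm markers, 7 had a row, with a summed level of 7975 in PB-Gbx2 and 6947 in PB, and 6 were higher. Their median log2 ratio was 0.51, close to the 0.52 of the target signature. Gata6 stood at 45 in PB-Gbx2 and 18 in PB, Pdgfra at 125 in PB-Gbx2 and 63 in PB. Gata4 stood at 68 in PB-Gbx2 and 36 in PB. These markers lay between percentiles 86.8 and 94.1 of the genes of similar level. Most of the endoderm sum came from Sparc (3606 in PB-Gbx2, 3757 in PB), Lama1 (2121 in PB-Gbx2, 1489 in PB) and Col4a1 (1954 in PB-Gbx2, 1536 in PB). Of 12 trophectoderm markers, 7 had a row, of which 3 lay above 0 and 4 below, with a median log2 ratio of -0.38. Of the 7, 3 were at least 2-fold lower in PB-Gbx2 and 1 higher, against 5.26% and 5.14% of all genes. Lower were the keratins Krt8 (225 in PB-Gbx2, 532 in PB), Krt18 (164 in PB-Gbx2, 363 in PB) and Krt7. Krt7 stood at 4 in PB-Gbx2 and 43 in PB, and 12.7% of the genes of similar level were at least 2-fold lower. Esx1 (54 in PB-Gbx2, 25 in PB) was at least 2-fold higher. Tfap2c (2439 in PB-Gbx2, 1441 in PB) and Eomes (215 in PB-Gbx2, 128 in PB) were also higher. The summed level of the 7 was 3257 in PB-Gbx2 and 2736 in PB, and without Tfap2c, left out after the values were seen, 818 in PB-Gbx2 and 1295 in PB. Cdx2 and Gata3, trophectoderm targets of Tead4, were not analysed here. Among the embryonic stem cell markers, Nanog lay at percentile 99.2 of the genes of similar level and Zfp42 at 98.6, further out than Cyr61 (95.5) and Ctgf (94.1). The part of such cells, or of the state of the stem cells, in the levels of Cyr61 and Ctgf was not tested.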

How the data were processed

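A TruSeq kit was used on Trizol-extracted RNA, per the labels' protocols. STAR and mouse build mm9 are named in the submitters' processing notes, while the counting tool is not given in the sources used here. Per gene, the level is a score in the deposited table: the authors' whole numbers share the same 14501 sorted values in both libraries, with a total of 16528899, so it was not treated as a read count and no depth, counting interval or floor can be given. The authors' deposited ratio and log2 ratio run PB over PB-Gbx2, and their p-value and adjusted p-value are quoted as theirs. Their adjusted p is under 0.05 for 34 genes.

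Rows with the same symbol were summed (1 case), which left 14500 genes. Log2 ratios, PB-Gbx2 over PB, were taken on log2(level + 1), which understates changes at low levels. A gene was called where it reached 2-fold, and fold changes are ratios of levels. For percentiles, genes were split by mean level into 20 groups of 725. The calling step was tested on simulated data without noise, in which 200 genes were shifted beyond 2-fold. That checks that the threshold is applied as written, and says nothing about false calls in these data. Lengths are the longest coding transcript in GENCODE M21, and promoters are from RefSeq. In 21 of 22 promoter windows examined, the bases after the start were in a GENCODE transcript of the same gene.

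The members and lists were chosen with earlier results of these data known. Named were the 10 genes, Gbx2, the genes of the coactivator, Tead and core kinase lists, and up to 4 genes of each other list with the largest absolute log2 ratio. All other genes named from the lists were picked once their values were known. A gene of the list of further targets is not reported here and was left out of its counts. Alternatives were a pseudocount of 0.1 or 5, centring on genes of similar level, a 1.5-fold threshold and a minimum level of 100. Python 3.11.15, numpy 2.4.6, pandas 2.3.3 and matplotlib 3.10.9 were used.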

Additional observations from a re-analysis of the deposited data

How the results depend on the processing

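All 49 values of the 10 genes under the alternatives kept their direction and their side of the threshold, which with 1 library per group says nothing about replication. Much of this was fixed in advance. A pseudocount, the 1.5-fold threshold and the minimum level cannot change the sign of a ratio, so only centring could have turned a direction. The minimum level also leaves each ratio and its call as they were. Cyr61 (130 in PB-Gbx2, 42 in PB) passed that minimum in PB-Gbx2 alone. Lats2 stayed under the minimum level of 100 and has no value there. The difference between targets and the kinases and Tead factors stayed within 1.5-fold of its reported value under each alternative run. With a 1.5-fold threshold, 1684 of all genes were higher and 1770 lower in PB-Gbx2, 5 of the 62 pathway components were higher and 5 lower, 9 of the 18 listed signature targets were higher, and 7 of the 17 further targets were higher. With a minimum level of 100, 10941 genes were left, of which 269 were higher and 259 lower, and 1 of 13 further targets was higher. The other counts stayed within 1.5 times the reported ones. No paired analysis was possible because there is a single library per group, so leaving 1 out was not possible either. The SD of the log2 ratio was 0.79 in the tenth of genes by level that holds Cyr61 and Lats2, and 0.32 in that of Tead1.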

Other observations

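Of the 18 signature targets with a row, 12 have a RefSeq promoter window of 250 bases before the start. The core GGAATG, on either strand, was in the windows of 6: Cyr61, Ptpn14, Crim1, Axl, Ankrd1 and Amotl2. Over all 32851 promoter windows, 12.6% held it. All 6 had log2 ratios above 0, between 0.43 and 1.61, but so did most of the list, with 15 of the 18 above 0. Ankrd1 (28 in PB-Gbx2, 18 in PB) and Crim1 (94 in PB-Gbx2, 48 in PB) have low levels, where ratios scatter more. The 6 without the core were Nt5e, Gadd45a, Igfbp3, Lats2, F3 and Myof. Their log2 ratios lay between -2.18 and 0.70, of which 4 were above 0. This split was made after the values were seen and has no test, and nothing about binding follows from it. Nov, the remaining relative of Cyr61 and Ctgf with a row, had levels of 27 in PB-Gbx2 and 18 in PB.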
